A study of Homo sapiens with 4 samples.

Results

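The genes described here encode the F-box substrate receptors of SCF ubiquitin ligases, together with the subunits that every SCF ligase shares. They were chosen by gene symbol. The choice took 36 FBXO genes, 16 FBXL genes and 9 FBXW genes, SKP2 and CCNF, whose proteins carry an F-box under another name, and the 3 core subunits SKP1, CUL1 and RBX1. This gave 66 of the 28278 gene symbols in the count table. FBXL5 was left out by the rule, and BTRC, an F-box gene whose symbol the rule does not take, is given with the partners of the ligase.

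An SCF ligase is built on the cullin CUL1, which holds the RING protein RBX1 at one end and the adaptor SKP1 at the other. RBX1 recruits an enzyme charged with ubiquitin, and SKP1 binds the F-box of an exchangeable receptor. The rest of the receptor, WD40 repeats in FBXW proteins, leucine-rich repeats in FBXL proteins and various other folds in FBXO proteins, selects the protein to be ubiquitinated, often after that protein has been phosphorylated. FBXW7 is a tumour suppressor that directs cyclin E, MYC, JUN and Notch proteins to degradation, and SKP2 directs the cyclin-dependent kinase inhibitor p27 to degradation.

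PolyA RNA was sequenced from cells labelled HepG2, a human hepatocellular carcinoma cell line, in 4 libraries. Both groups had been infected with lentivirus carrying Cas9 and a guide RNA to give stable cell populations, and both received Sorafenib, a multikinase inhibitor used in liver cancer, for 24 h, at 10 µM per the methods of the study. The control group (n = 2) carried a control guide RNA. The sgUSP22 group (n = 2) carried a guide RNA against USP22, which encodes the deubiquitinase of the SAGA complex, and is labelled USP22 knockout. Both groups thus shared Cas9 and Sorafenib, and no group without Sorafenib was compared. The labels do not say whether the replicates were separate cultures, so that p-values measure the spread between these libraries, which may be technical.

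Library totals ranged from 62030307 to 64728272 counts. Levels are given in CPM, the count scaled to the size of the library. A listed 0 leaves room for as many as 3 counts, which is 0.0457 to 0.0492 CPM, and this limit covers counting error only. USP22 itself, at 16450 and 16537 counts in control, reached 20279 and 20368 counts in the libraries labelled sgUSP22. Its mRNA was therefore higher, not lower, under the guide against it (log2 fold change 0.22, edgeR adjusted p = 0.000394), and the directions below rest on the label. The protein was not measured in these files. Of 24 hepatocyte genes, 13, ALB, APOA1 and TTR among them, were listed at 0 in all 4 libraries, AFP had at most 4 counts and HNF4A at most 9. Only FOXA1, VTN and AMBP passed the filter for testing. The summed level of the 24 genes was 17.4 and 18.2 CPM in the control libraries and 14.5 and 13.9 CPM in the libraries labelled sgUSP22. KRT8, a keratin of simple epithelium, was at 763 and 788 CPM in control and 611 and 590 CPM in the libraries labelled sgUSP22, whereas CDH1 was listed at 0 throughout. The summed level of 7 mesenchymal genes was 1568 to 1632 CPM, although FN1 rose (log2 fold change 1.13), ACTA2 and PDGFRB fell (-0.91 and -0.98) and VIM was at -0.39. The summed level of 4 endothelial genes was at most 0.529 CPM and of 4 blood genes at most 0.201 CPM. The part of cell identity in the results below was not tested, and in these bulk samples fewer cells of a type and less RNA per cell cannot be told apart.

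The comparison asked which receptor transcripts differ between cells with the USP22 guide and cells with the control guide under Sorafenib. Of the 66 genes, 57 had enough counts to be tested with edgeR's quasi-likelihood test, fitted over 15150 genes with Benjamini-Hochberg adjustment over all of them. A gene is said to have risen or fallen, and is named a called gene, where the adjusted p was under 0.05 and the difference was 1.5-fold or more, which is 0.58 on the log2 scale. Of the 57 genes, 6 rose, or 10.5%, where 8.88% of all tested genes rose. In the other direction 7 fell, or 12.3%, where 7.25% of all tested genes fell. FBXO48, CCNF, FBXL2, FBXO2, FBXW7 and FBXO28 rose in the libraries labelled sgUSP22, and FBXO32, FBXO27, FBXO36, FBXW4, FBXL15, FBXW5 and FBXL6 fell. The 3 core subunits were not called by edgeR or DESeq2, with CUL1 the 1 of them at an unadjusted p under 0.05. Over all 15150 genes, 4460 were higher and 4278 lower at an unadjusted p under 0.05. FBXO48, CCNF, FBXL2 and FBXO32 reached a 2-fold change, and in all 13 called genes the groups did not overlap. The groups did not overlap in 48 of the 57 genes, or 84.2%, against 75.9% of all tested genes.

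**Figure D1:**
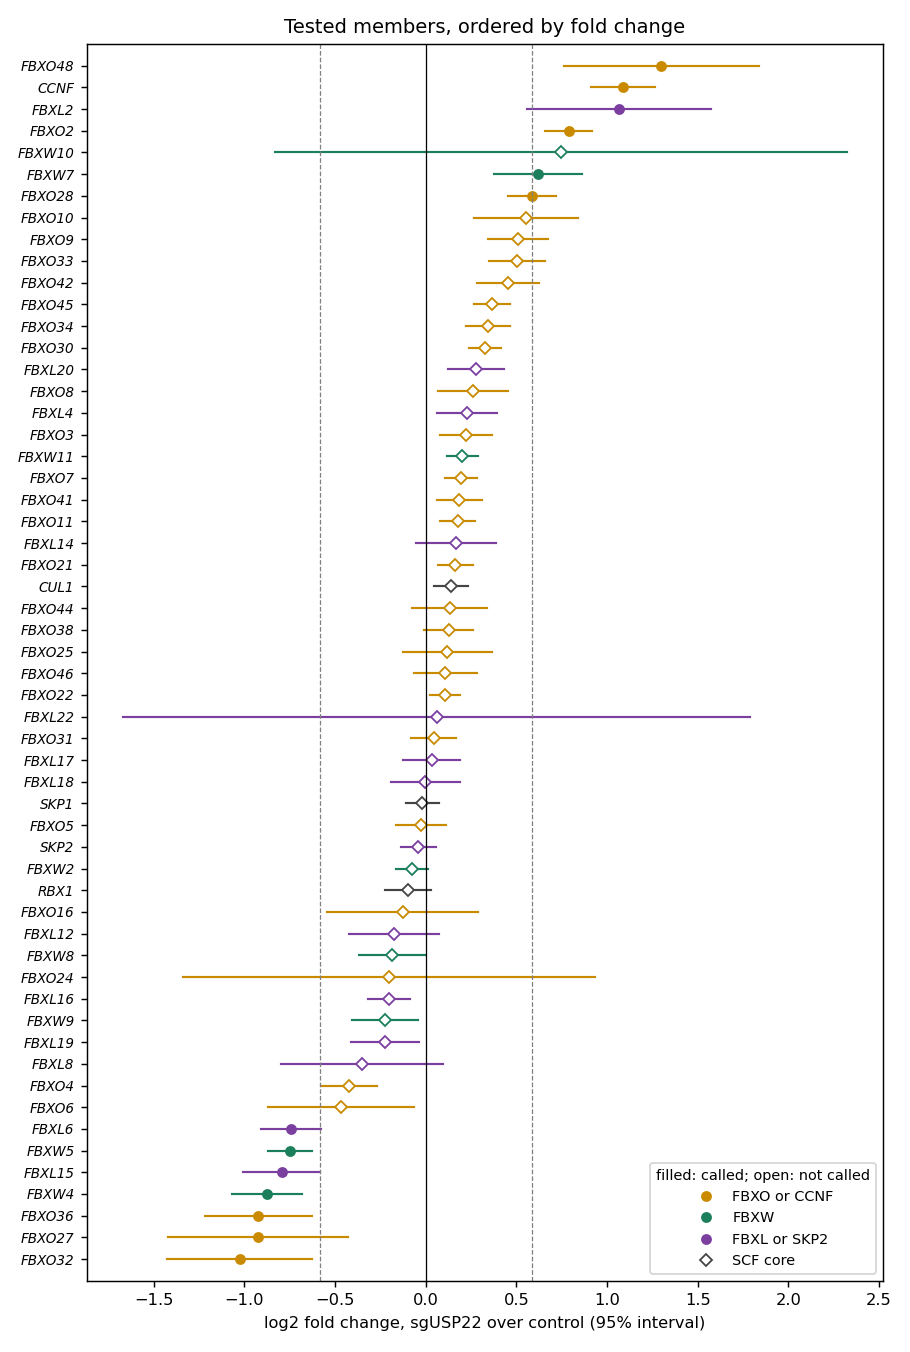
Log2 fold change of 56 of the 57 tested genes, libraries labelled sgUSP22 over control, from edgeR (horizontal axis), ordered from highest to lowest; bars are 95% intervals and dashed lines mark a 1.5-fold change. Filled symbols are the 13 called genes, 6 on the right and 7 on the left, and most open symbols lie within the dashed lines.

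The median absolute log2 fold change was 0.22 over the 57 genes, the called genes included, and 0.29 over all tested genes. Without the fold change threshold, 25 of the 57 genes were higher at the adjusted p threshold, or 43.9% against 26.8% of all tested genes, and 11 were lower, or 19.3% against 25.8%. This split narrowed with a correction for base composition and length and is taken up again with the GC content. The other 21 genes did not pass. For 16 of these the 95% interval of the fold change lay inside 1.5-fold in either direction, and for 5 it reached further, so that a change of that size is not excluded for those 5. FBXW10 is an example of the latter, with 13 and 13 counts in control and 10 and 36 in the libraries labelled sgUSP22.

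The fixed subunits came first in the comparison, since every receptor depends on them. SKP1, the adaptor, had 10969 and 10934 counts in control and 11204 and 11617 in the libraries labelled sgUSP22, a log2 fold change of -0.02 (95% interval -0.11 to 0.07). CUL1, the scaffold, was at 80.5 and 81.0 CPM in control and 87.1 and 90.6 CPM in the libraries labelled sgUSP22, a log2 fold change of 0.14 (standard error 0.042, edgeR adjusted p = 0.0198), which is under the fold change threshold. RBX1, the RING subunit, was at 52.9 and 49.0 CPM in control and 48.5 and 46.6 CPM in the libraries labelled sgUSP22, with an interval from -0.23 to 0.03. The control and sgUSP22 values of SKP1 overlapped, those of CUL1 and RBX1 did not, and all 3 intervals lay inside a 1.5-fold change. The sign of the SKP1 value turned when the libraries were scaled by their totals alone (0.033) and without sgUSP22 replicate 1 (0.0069). A correction for base composition and length, described further on, moved SKP1 furthest, to -0.28 (edgeR adjusted p = 0.000109), and CUL1 to 0.06 (edgeR adjusted p = 0.214). CUL1 also missed the adjusted p threshold without control replicate 1 (edgeR adjusted p = 0.0746), control replicate 2 (0.0602) or sgUSP22 replicate 2 (0.123).

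Per kilobase of the canonical transcript, the levels of the receptors spanned a wide range. Averaged over the 4 libraries, FBXO7, a receptor that also acts in mitochondrial quality control, was highest at 66.5 CPM per kb, followed by FBXW5 at 46.4, the core subunit RBX1 at 42.1, FBXO2 at 30.3 and FBXW11 at 27.7 CPM per kb. FBXW7 stood at rank 43 of 57 with 3.16 CPM per kb. Of these highly expressed genes, FBXW5 fell and FBXO2 rose, while FBXO7 (log2 fold change 0.19, edgeR adjusted p = 0.002) and FBXW11 (0.20, edgeR adjusted p = 0.00139) were higher in the libraries labelled sgUSP22 by less than 1.5-fold. With the GC content and length correction FBXW11 was at 0.09 and no longer passed (edgeR adjusted p = 0.0563). FBXW11 is a beta-TrCP receptor that directs beta-catenin and I-kappa-B to degradation.

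**Figure D2:**
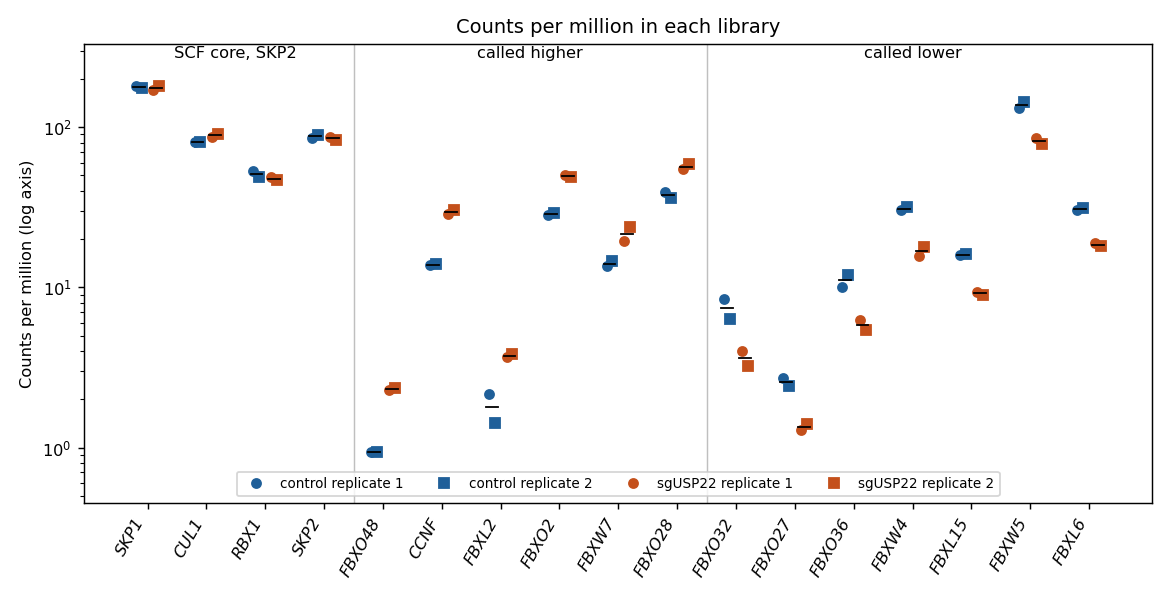
CPM (vertical log axis) of the core subunits, SKP2 and the 13 called genes in each of the 4 libraries; horizontal dashes are group means. The control and sgUSP22 points separate in every called gene and lie close together for SKP1 and SKP2.

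FBXW7 had 827 and 906 counts in control and 1275 and 1529 counts in the libraries labelled sgUSP22, or 13.6, 14.5, 19.4 and 23.7 CPM. Both libraries labelled sgUSP22 were above both control libraries, and the spread was wider among the former (21.5 ± 3.03 CPM, SD, n = 2) than among the latter (14.0 ± 0.679 CPM, SD, n = 2). The log2 fold change was 0.62 (standard error 0.11, edgeR adjusted p = 0.000913), which lies just above the threshold. It fell under 1.5-fold without sgUSP22 replicate 2 (0.47), without control replicate 1 (0.57) and with a correction for GC content and transcript length (0.50), and stayed positive with an adjusted p below 0.05 in each. The gene lies on the minus strand at chr4:152320544-152536092 (hg38), and its antisense neighbour FBXW7-AS1 overlaps 127 bases of its exons, or 2.25% of the canonical transcript. Whether the counting used strand is not given in the sources used here.

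The CCNF transcript encodes cyclin F, an F-box protein of the cell cycle that peaks in G2 and directs CP110 and RRM2 to degradation. It had 842 and 870 counts in control and 1888 and 1950 counts in the libraries labelled sgUSP22, or 13.8, 13.9, 28.7 and 30.2 CPM. The replicates lay close together in each group, with a wide gap between the groups. The log2 fold change was 1.09 (standard error 0.079, edgeR adjusted p = 2.98e-06), the smallest standard error of the genes that reached 2-fold. CCNF lies on the plus strand at chr16:2429394-2458854, and its exons share 219 and 171 bases with 2 opposite-strand long noncoding RNAs. Its neighbourhood moved the other way, with 104 of the 152 tested genes within 5 Mb having a log2 fold change below 0 and a median of -0.21.

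The sequence before the start of CCNF is shown because this gene rose most among the well-counted members, with those of FBXW7 and of FBXW5, the best-counted gene that fell, for comparison. Sequences are from RefSeq (GRCh38.p14), 5′ to 3′ on the strand of the gene, at chr16:2429197-2429393, chr4:152536093-152536342 and chr9:136944739-136944988, and for CCNF the last 53 of the 250 bases are not printed because another annotation places them in the gene. Capitals mark the GC box GGGCGG, the CCAAT box CCAAT, both on either strand, and TTTGAA, the cell cycle homology region.
CCNF: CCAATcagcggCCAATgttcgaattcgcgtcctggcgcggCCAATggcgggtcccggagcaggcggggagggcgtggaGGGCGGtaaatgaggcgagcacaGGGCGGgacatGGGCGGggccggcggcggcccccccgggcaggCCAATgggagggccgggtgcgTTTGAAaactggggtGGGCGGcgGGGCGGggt
FBXW7: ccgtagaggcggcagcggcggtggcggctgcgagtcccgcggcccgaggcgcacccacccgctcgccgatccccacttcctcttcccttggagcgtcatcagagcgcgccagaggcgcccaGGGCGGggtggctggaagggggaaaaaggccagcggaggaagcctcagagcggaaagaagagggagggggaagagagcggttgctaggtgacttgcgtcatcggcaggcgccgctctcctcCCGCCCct
FBXW5: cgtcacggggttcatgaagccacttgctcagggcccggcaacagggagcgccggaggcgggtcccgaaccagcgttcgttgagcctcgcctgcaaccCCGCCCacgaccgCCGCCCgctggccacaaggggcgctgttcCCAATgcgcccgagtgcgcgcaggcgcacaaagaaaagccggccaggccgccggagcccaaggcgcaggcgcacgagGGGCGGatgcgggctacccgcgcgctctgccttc

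CCNF held 4 CCAAT boxes, 5 GC boxes and 1 TTTGAA in this window. FBXW7 held 2 GC boxes and no CCAAT box, and FBXW5 held 3 GC boxes and 1 CCAAT box. Windows of 250 bases were found for 52 of the 66 genes, of 27305 windows in all. The 27305 windows were not limited to genes expressed here, where 15150 genes were tested. CCNF alone among the 52 had 4 or more CCAAT boxes, which 0.930% of all windows hold, and it alone had both CCAAT and TTTGAA, which 4.85% of all windows hold. The number and the pair compared are those found in CCNF, a gene chosen for its rise. These shares are therefore descriptive and no test. Promoters with both elements are typical of genes expressed in G2 and mitosis. Of 16 G2 and mitosis genes with a window, 8 held both. Over these 8 the log2 fold changes ran from -0.65 to 0.24 around a median of -0.21. CCNF was at 1.09, and the part of these elements in its change was not tested. The GC box stood in 35 of the 52 windows, or 67.3%, against 42.3% of all windows, and the CCAAT box in 14, or 26.9%, against 33.0%. The GC box was found in 5 of the 6 genes that rose and in 3 of the 4 genes that fell and had a window. Other elements were rarer. The E-box CACGTG stood in 4 of the 52 windows (7.69%, against 6.49% of all), TGACNNNGC, the core of the antioxidant response element, in 9 (17.3%, against 11.0%), the TATA box TATAAA in 3 (5.77%, against 11.1%), the cyclic AMP response element TGACGTCA in 2 (3.85%, against 1.77%), and the E2F site TTTNGCGC in 1 (1.92%, against 1.54%). Of these only the E-box was found in a called gene with a window, in 1 of the 6 that rose and 1 of the 4 that fell. These matches describe letters in a window and are not binding sites.

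The other receptors that rose serve different roles. FBXO2 encodes a receptor for proteins with high-mannose glycans, which are retrotranslocated from the endoplasmic reticulum. It had 1717 and 1812 counts in control and 3307 and 3129 counts in the libraries labelled sgUSP22, a log2 fold change of 0.79 (standard error 0.057, edgeR adjusted p = 3e-06). The replicates of each group differed by far less than the groups did, and the GC content and length correction raised the value to 1.03. FBXO28, which acts in the nucleus and ubiquitinates MYC, had 2383 and 2268 counts in control and 3595 and 3781 in the libraries labelled sgUSP22. Its log2 fold change of 0.59 was the smallest among the genes that rose, and it lost the call with RLE factors (0.583), with a filter at a mean of 50 counts (0.582), without control replicate 2 or sgUSP22 replicate 2 (both 0.54) and with the GC content and length correction (0.33).

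FBXL2 and FBXO48 were measured on few counts. FBXL2, a membrane-anchored receptor, had 132 and 89 counts in control and 240 and 249 counts in the libraries labelled sgUSP22. The control libraries stood apart from each other, and the log2 fold change of 1.06 (standard error 0.23, edgeR adjusted p = 0.00293) ranged from 0.79 to 1.39 as 1 library at a time was left out. FBXO48 had 57 and 59 counts in control and 150 and 152 in the libraries labelled sgUSP22, the highest fold change of all 57 genes at 1.30 on the log2 scale (standard error 0.24, edgeR adjusted p = 0.00124). Its counts were alike within each group.

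Just under the threshold were 4 further FBXO genes, which passed the adjusted p threshold with log2 fold changes of 0.45 or more. FBXO10, a receptor of the apoptosis inhibitor BCL2, was at 5.79 and 6.04 CPM in control and 9.33 and 8.06 CPM in the libraries labelled sgUSP22 (log2 fold change 0.55, edgeR adjusted p = 0.00469). It crossed the threshold with the GC content and length correction (0.61) and with library totals alone (0.61), as well as without control replicate 2 (0.59) or sgUSP22 replicate 2 (0.66). Without sgUSP22 replicate 1 it was at 0.43 and missed the adjusted p threshold (edgeR adjusted p = 0.0562). FBXO9 (0.51, and past 1.5-fold at 0.60 without control replicate 2), FBXO33 (0.50) and FBXO42 (0.45), a receptor of p53, were also higher, with no overlap between the groups.

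Among the genes that fell, FBXO32 changed most. It encodes atrogin-1, a receptor induced in wasting muscle by FOXO factors. It had 513 and 398 counts in control and 265 and 208 counts in the libraries labelled sgUSP22, and fell by 1.03 on the log2 scale (standard error 0.18, edgeR adjusted p = 0.000869). Both groups spread widely but did not overlap. Of the other genes listed as induced in muscle wasting, FBXO30 (0.33) and FBXO21 (0.16) were higher at the adjusted p threshold and under 1.5-fold, and with the GC content and length correction neither passed, at -0.06 for FBXO30 and 0.03 for FBXO21 (edgeR adjusted p = 0.226 and 0.642). FBXO40, a receptor of muscle, was listed at 0 in all 4 libraries.

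FBXW5 lost the most counts. It encodes a WD40 receptor that also works with the CUL4 ligase through DDB1. It had 8049 and 8904 counts in control and 5600 and 5054 counts in the libraries labelled sgUSP22, or 132, 143, 85.2 and 78.3 CPM. The log2 fold change was -0.75 (standard error 0.054, edgeR adjusted p = 2.77e-06). FBXL6 had 1859 and 1953 counts in control and 1239 and 1162 in the libraries labelled sgUSP22, a log2 fold change of -0.75 (edgeR adjusted p = 2.28e-05). Both were lower in each library labelled sgUSP22 than in either control library. With the GC content and length correction they were at -0.56 and -0.53, under 1.5-fold, with adjusted p-values of 8.32e-06 and 0.000198.

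FBXW4 and FBXL15 lie near each other on the long arm of chromosome 10, at chr10:101610664-101695295 and chr10:102419189-102423136. FBXW4 had 1840 and 1974 counts in control and 1034 and 1160 counts in the libraries labelled sgUSP22, a log2 fold change of -0.88 (standard error 0.086, edgeR adjusted p = 2.24e-05). FBXL15, a receptor of the SMURF ligases of BMP signalling, had 969 and 1002 counts in control and 619 and 581 in the libraries labelled sgUSP22, a log2 fold change of -0.79 (edgeR adjusted p = 8e-05), which the GC content and length correction moved to -0.55. Their neighbourhood was lower as well. Within 5 Mb of FBXW4, 76 of 95 tested genes had a log2 fold change below 0, with a median of -0.49, and within 5 Mb of FBXL15, 72 of 88 did, with a median of -0.51. The part of the chromosomal region in these results was not tested. BTRC, the other beta-TrCP gene and a neighbour of FBXW4, was higher, with 1735 and 1621 counts in control and 2090 and 2082 in the libraries labelled sgUSP22 (log2 fold change 0.23, edgeR adjusted p = 0.019).

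FBXO36 and FBXO27 were the remaining genes that fell. FBXO36 had 617 and 750 counts in control and 409 and 352 counts in the libraries labelled sgUSP22, a log2 fold change of -0.92 (standard error 0.13, edgeR adjusted p = 0.000261). FBXO27 had 166 and 151 counts in control and 85 and 91 counts in the libraries labelled sgUSP22, a log2 fold change of -0.93 (standard error 0.22, edgeR adjusted p = 0.00572). The groups did not overlap in either gene. Both fell by more than 1.5-fold in every fit in which a fold change was estimated, with the smallest changes at -0.79 when control replicate 2 was left out for FBXO36 and -0.81 with the GC content and length correction for FBXO27.

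FBXO27 and FBXO2 belong to a family of 5 glycoprotein-binding receptors, and the family split. FBXO2 rose and FBXO27 fell. FBXO6, which like FBXO2 acts on glycoproteins of the endoplasmic reticulum, was at 4.38 and 4.07 CPM in control and 3.42 and 2.68 CPM in the libraries labelled sgUSP22, a log2 fold change of -0.47 that missed the threshold (edgeR adjusted p = 0.051) and passed it without sgUSP22 replicate 1 (-0.67, adjusted p = 0.0336). FBXO44 was at 15.3 and 14.1 CPM in control and 15.5 and 16.6 CPM in the libraries labelled sgUSP22 (0.13, 95% interval -0.08 to 0.34), and FBXO17 had at most 5 counts and was not tested. FBXO2, FBXO44 and FBXO6 follow each other on chromosome 1, at chr1:11637018-11655785, chr1:11654375-11663327 and chr1:11664200-11674354. The annotated genes FBXO2 and FBXO44 overlap on opposite strands, but no exon of the canonical FBXO2 transcript overlaps FBXO44. The difference between the 3 fold changes was not tested.

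Of 10 F-box genes with a role in the cell cycle, 9 were tested, and CCNF and FBXW7 rose. They are 22.2% of the 9, where 8.88% of all tested genes rose. None of the 9 fell by edgeR or DESeq2, where 7.25% of all tested genes fell in edgeR. In edgeR 1 of the 9, FBXO4, was lower at an unadjusted p under 0.05. SKP2 had 5246 and 5536 counts in control and 5691 and 5372 counts in the libraries labelled sgUSP22, a log2 fold change of -0.04 (95% interval -0.14 to 0.06) with overlapping groups. FBXO5, which encodes the inhibitor EMI1 of the anaphase-promoting complex, also overlapped, with a log2 fold change of -0.03 (95% interval -0.17 to 0.11). With library totals alone both turned to small positive values, 0.011 for SKP2 and 0.026 for FBXO5. With the GC content and length correction both were lower and passed the adjusted p threshold, SKP2 at -0.18 (edgeR adjusted p = 0.00746) and FBXO5 at -0.19 (edgeR adjusted p = 0.0243). FBXO4, a receptor of cyclin D1 in some cells, was lower at 31.4 and 33.0 CPM in control against 23.9 and 24.2 CPM in the libraries labelled sgUSP22 (log2 fold change -0.42, edgeR adjusted p = 0.000579), under 1.5-fold. FBXO31 was at 0.04 (95% interval -0.08 to 0.17). FBXO43, the paralog of FBXO5 that acts in germ cells, had at most 12 counts. Lists of other cell cycle genes went both ways. Of 20 S phase genes, CCNE2 rose, or 5%, and none fell by edgeR or DESeq2. In edgeR 9 were lower at an unadjusted p under 0.05, where 4278 of the 15150 tested genes were. The median log2 fold change of the 20 was -0.07. Of 20 G2 and mitosis genes AURKA and CENPE rose, or 10%, and CDK1 fell, or 5%. At the adjusted p threshold 8 were higher and 8 lower, or 40% each, where 26.8% and 25.8% of all tested genes were. Their median was 0.03, where the median of all tested genes was 0.00091. The part of the cell cycle in the change of CCNF was not tested.

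By receptor family, the FBXO group, CCNF included, had 31 tested genes. Of these 4 rose, or 12.9%, and 3 fell, or 9.68%, with a median log2 fold change of 0.18. Of the 15 tested genes of the FBXL group, SKP2 included, 1 rose, or 6.67%, and 2 fell, or 13.3%, with a median of -0.0024. Of the 8 tested FBXW genes 1 rose, or 12.5%, and 2 fell, or 25%, with a median of -0.13. Over all tested genes 8.88% rose and 7.25% fell. FBXL19, a receptor with a CXXC domain that binds unmethylated CpG islands, was lower at -0.22 (edgeR adjusted p = 0.044) and did not reach 1.5-fold.

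The 9 genes that were not tested had at most 16 counts in any library. FBXO39, FBXO40 and FBXL7 were listed at 0 in all 4 libraries. FBXO47, FBXO15, FBXO17, FBXW12, FBXL13 and FBXO43 had a few counts in some of them. Of the tested genes, 56 had at least 10 counts in every library, and FBXL22 was the exception with 41 and 5 counts in control and 26 and 25 in the libraries labelled sgUSP22.

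The fold changes were correlated in part with base composition and with transcript length. Over the 57 genes, the log2 fold change had a Spearman correlation of -0.37 with the GC content of the canonical transcript and 0.35 with its length, against -0.25 and 0.23 over 14384 tested genes with an annotated length. These correlations are across genes of the same 4 libraries and genes are not independent replicates. The 7 genes that fell had a median GC content of 62.3% and a median length of 2362 bases, and the 6 that rose 45.5% and 4828.5 bases. The tested genes were split by GC content into 3 bins of equal size. In the highest bin 5 of 22 members fell and 2, CCNF and FBXO2, rose. Of all genes in that bin 9.86% fell and 6.49% rose. In the lowest bin, 2 of 23 members fell, FBXO36 and FBXO32, and 2 rose, FBXO48 and FBXO28, where 4.44% of all genes in that bin fell and 11.8% rose. In the middle bin 2 of 12 members rose, FBXL2 and FBXW7, and none fell, where 8.47% of all genes in that bin rose and 7.32% fell. Under the GC content and length correction, 5 of the 57 genes rose and 4 fell. FBXW7, FBXO28, FBXL6, FBXW5 and FBXL15 lost their calls and FBXO10 gained one. Without a fold change threshold, the correction moved the split from 25 higher and 11 lower to 17 higher and 13 lower, with a median of 0.02 in place of 0.12. It also moved all tested genes, from 26.8% higher and 25.8% lower to 22.2% and 26.5%. Their median went from 0.00091 to -0.022. GC content and length were corrected together, and the part of either in the fold changes was not tested beyond this correction.

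**Figure D3:**
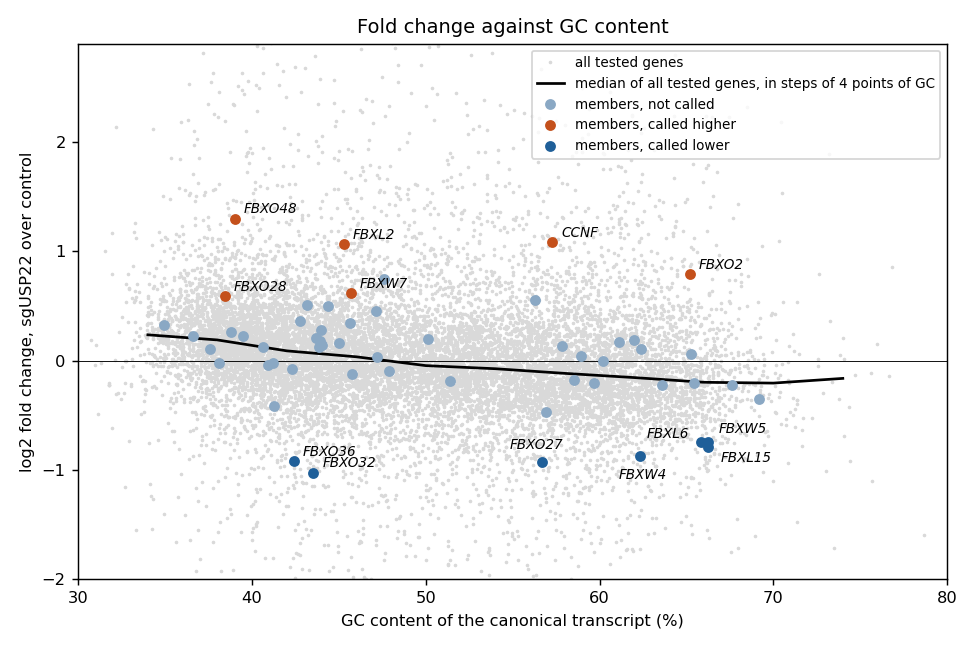
Log2 fold change (vertical axis, values beyond its limits not drawn) against GC content of the canonical transcript (horizontal axis, %) for all tested genes in grey and 56 members in colour; the line is the median of all tested genes. FBXW4, FBXL6, FBXW5 and FBXL15 fell and lie above 60% GC, with FBXO36 and FBXO32 at 42.4% and 43.5%, and FBXO2 and CCNF rose at 65.2% and 57.3%.

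**Figure D4:**
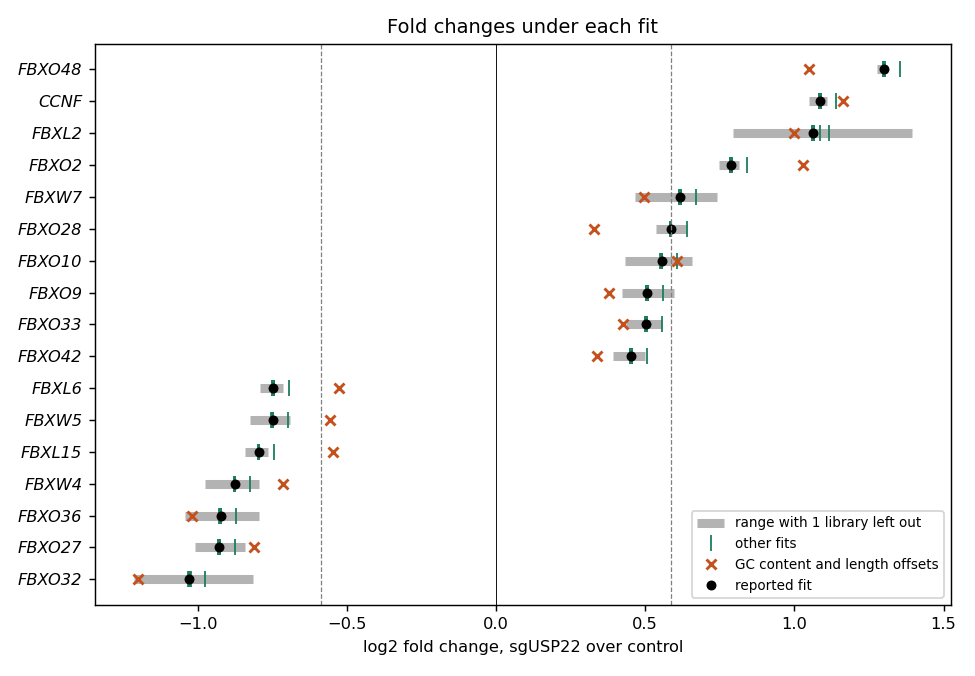
Log2 fold change (horizontal axis) of the 13 called genes and of the 4 genes just under the threshold in each fit: black points as reported, crosses with the GC content and length correction, ticks the other fits and grey bars the range as each library was left out in turn. FBXW7 and FBXO28 cross the dashed 1.5-fold line, and the crosses of FBXL6, FBXW5 and FBXL15 lie inside it.

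The genes that switch the ligase on and off are given next. CUL1 works only when NEDD8 is attached to it. Of 14 genes of the NEDD8 cycle and of cullin exchange 13 were tested and 2 rose, or 15.4%. Over all tested genes 8.88% rose, and 16.1% were called either way. Without the fold change threshold 6 were higher, or 46.2%, and 3 lower, or 23.1%, where 26.8% and 25.8% of all tested genes were. None of the 13 fell by edgeR or DESeq2. In edgeR 3 of them were lower at an unadjusted p under 0.05, where 4278 of the 15150 tested genes were. SENP8, which processes NEDD8 and removes it from other proteins, had 23 and 24 counts in control and 65 and 70 in the libraries labelled sgUSP22 (log2 fold change 1.44, standard error 0.37, edgeR adjusted p = 0.00837). GLMN, which covers RBX1 and blocks its enzyme, had 717 and 790 counts in control and 1176 and 1241 in the libraries labelled sgUSP22 (log2 fold change 0.60, edgeR adjusted p = 0.000408). Both were higher in each library labelled sgUSP22, and GLMN lay just above the threshold. Genes of this and the following lists were not checked by name with the GC content and length correction or with a library left out. DCUN1D1, a NEDD8 ligase for cullins, was at 0.55, UBE2M, the NEDD8-conjugating enzyme, at -0.41, NEDD8 itself at -0.22 and CAND1, the exchange factor that frees CUL1 for another receptor, at 0.22, all past the adjusted p threshold and under 1.5-fold.

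None of the 10 subunits of the COP9 signalosome, which removes NEDD8, was called by edgeR or by DESeq2. The same held for 10 partners of the ligase. Most of these carry ubiquitin to SCF, and CKS1B, RNF7 and the F-box gene BTRC are also among them. In each list 5 genes had an unadjusted p under 0.05, and the same number passed the adjusted threshold without the fold change threshold. Of all 15150 tested genes, 4460 were higher and 4278 lower at that unadjusted p. At the adjusted threshold 26.8% were higher and 25.8% lower. In the latter list CKS1B, the partner of SKP2 in recognising p27, was at -0.38, and the ubiquitin-conjugating enzymes UBE2D1 and CDC34 at -0.49 and -0.36. The largest value among the COP9 subunits was -0.47, of COPS7A.

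Among the other cullins the values were uneven. Of 10 other cullins and adaptors, CUL5 and CUL3 rose, or 20%, where 8.88% of all tested genes rose. CUL5 had 618 and 641 counts in control and 2100 and 1870 counts in the libraries labelled sgUSP22, a log2 fold change of 1.58 (standard error 0.087, edgeR adjusted p = 6.21e-07). CUL3 had 2357 and 2223 counts in control and 4263 and 4287 counts in the libraries labelled sgUSP22, a log2 fold change of 0.82 (standard error 0.056, edgeR adjusted p = 2.11e-06). The groups did not overlap for either cullin, while CUL1 was at 0.14, CUL4A at 0.06, CUL4B at 0.09 and CUL9 at 0.15. Differences between cullins were not tested. CUL7, which pairs with FBXW8, was at 0.57, just under the threshold, and FBXW8 was at -0.19 (95% interval -0.37 to -0.01, edgeR adjusted p = 0.0785).

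The receptor families of other cullins are given beside those of CUL1. Of 28 tested KLHL genes, receptors of CUL3, 4 rose and 4 fell, or 14.3% each. Over all tested genes 8.88% rose and 7.25% fell. The median log2 fold change of the KLHL genes was -0.11. Of 13 DCAF genes, receptors of CUL4, none was called by edgeR or DESeq2, with a median of -0.0053. In edgeR 3 were higher and 4 lower at an unadjusted p under 0.05, where 4460 and 4278 of the 15150 tested genes were. Of 16 tested ASB and SOCS genes, which serve CUL5 and CUL2, ASB7, ASB9 and SOCS7 rose, or 18.8%, with a median of 0.19. None of the 16 fell by edgeR or DESeq2, and 3 were lower at an unadjusted p under 0.05 in edgeR. The families were not compared by a test.

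The transcripts of proteins that FBXW7 is known to target were given next to its own. FBXW7 acts on proteins, and these values are of mRNA. Of 15 such genes 6 rose, or 40%, and 2 fell, or 13.3%, where 8.88% of all tested genes rose and 7.25% fell. CCNE2 and CCNE1, the E cyclins, rose by 1.18 and 1.03 on the log2 scale, and CCNE1 had 169 and 247 counts in control and 465 and 431 in the libraries labelled sgUSP22. NOTCH2, a Notch receptor, had 6718 and 7292 counts in control and 15962 and 16207 in the libraries labelled sgUSP22, a log2 fold change of 1.12. SREBF2, the regulator of cholesterol synthesis genes, was at 0.80 and AURKA, a mitotic kinase, at 0.60. JUN, an AP-1 subunit, had 4410 and 4402 counts in control and 2326 and 1967 in the libraries labelled sgUSP22 and fell by 1.12, and NFKB2, which lies on chromosome 10 like FBXW4, fell by 0.77. MCL1 (-0.50) and MYC (-0.23) were lower at the adjusted p threshold and under 1.5-fold. The substrates thus went both ways, with a median of 0.07. AURKA lay just above the threshold, and the 8 calls were not checked with the GC content and length correction.

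Of 3 deubiquitinases linked to FBXW7 or to its substrates, USP9X rose from 290 and 292 CPM to 440 and 464 CPM (log2 fold change 0.63, edgeR adjusted p = 7.84e-07). USP28 was at 0.19 and USP36 at -0.16. Among 7 genes whose proteins SKP2 targets, CDKN1C, the kinase inhibitor p57, had 1978 and 1961 counts in control and 4368 and 3995 in the libraries labelled sgUSP22 and rose by 1.01. CDKN1B, the gene of p27, was at 119 and 118 CPM in control and 88.3 and 84.6 CPM in the libraries labelled sgUSP22 (-0.46, edgeR adjusted p = 1.11e-05), under 1.5-fold, and CDKN1A, the gene of p21, was at 0.08 (edgeR adjusted p = 0.235). The median of the 7 was -0.08. CDKN1C was the only called gene among them, or 14.3%, where 16.1% of all tested genes were called either way.

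**Figure D5:**
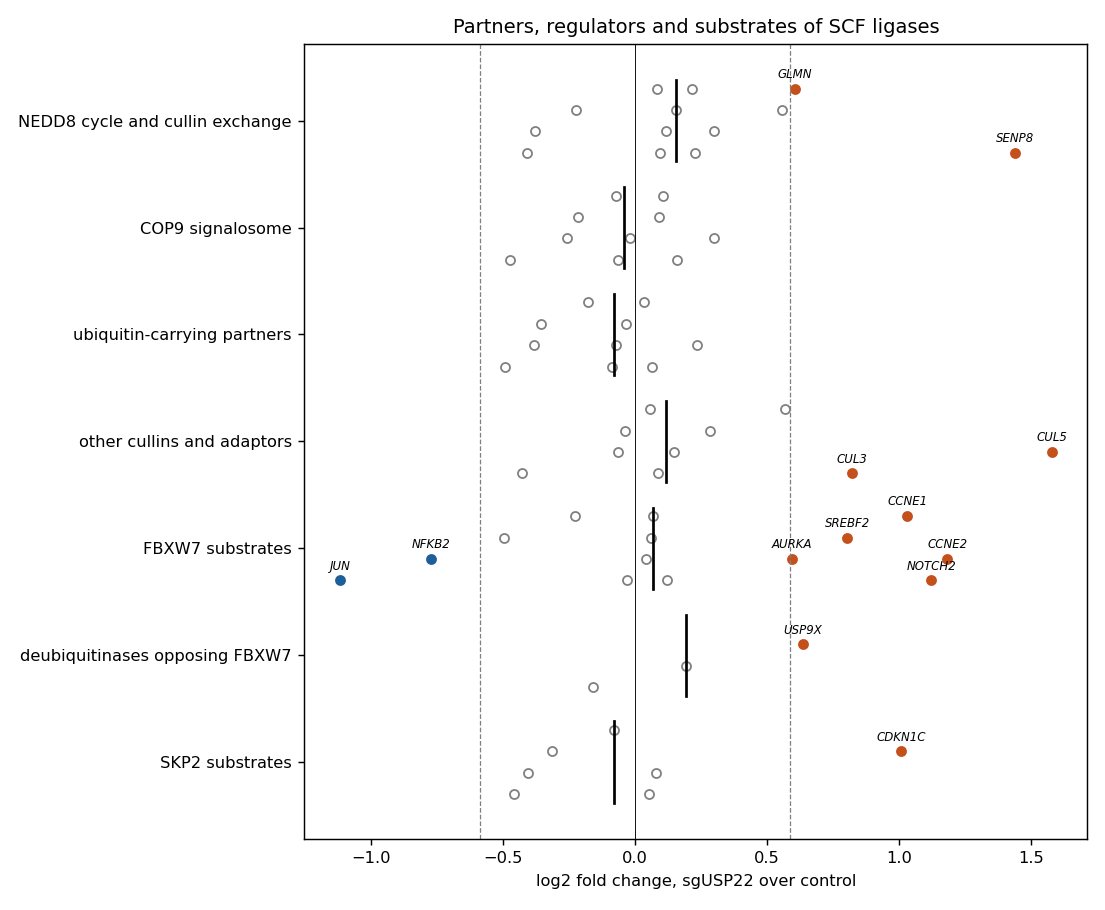
Log2 fold change (horizontal axis) of genes of 7 lists around the SCF ligases, 1 row per list; vertical bars are list medians, dashed lines a 1.5-fold change, filled points called genes and open points genes not called. CUL5, SENP8, CCNE2 and NOTCH2 lie farthest to the right and JUN farthest to the left, while the list medians lie between -0.08 and 0.19.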

How the data were processed

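Libraries of polyA RNA were sequenced on DNBSEQ-G400. Per the labels and methods of the study, reads were aligned to hg38 with HISAT2 2.2.1, and the authors deposited whole-number gene counts from StringTie 2.2.1, not divided by library size. Annotation, strand setting and read length are not given in the sources used here. All 4 count columns were assigned by name. The test was the quasi-likelihood F test of edgeR 4.0.16 under R 4.3.3, after TMM scaling and filterByExpr at a minimum count of 10. CPM used TMM-scaled library sizes. Standard errors were derived from the fold change and its F statistic. The procedure was tested on simulated data. Replicates differed by more than sampling noise (mean chi-square per gene 7.97 and 8.50). GENCODE gave positions, lengths and GC content for 25763 of 28278 symbols.

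The members, lists and tests were chosen with earlier results of these data known. Named genes are FBXW7, SKP1, CUL1, RBX1, SKP2, CCNF, called members, members past the adjusted p threshold between a log2 fold change of 0.45 and the 1.5-fold threshold, the 5 highest per kilobase, paralogs of called members in a subgroup and, from other lists, called genes and at most 4 more. Genes named outside this rule, such as FBXW10, FBXL19 and FBXW8, were chosen after their values were seen. Alternatives were DESeq2 1.42.0, library size alone, RLE factors, a mean of 50 counts or more as filter, no filter, no fold change threshold, the replicate block, testing against 1.5-fold, lowess offsets for GC content and length (span 0.3) and leaving out each library. Combining no fold change threshold with the offsets, library size alone or DESeq2 was added after seeing the data. Some members of the lists are counted but not reported by name.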

Additional observations from a re-analysis of the deposited data

How the results depend on the processing

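Of 217 comparisons of 31 named members with another setting, 204 kept direction and call, 7 lost the call, 2 gained it and 4 turned sign, and of 124 with 1 library left out, 113 kept both, 4 lost and 4 gained the call and 3 turned sign. The tally of 217 leaves out the test against a 1.5-fold change and the fit with no fold change threshold. A gene that stayed uncalled with the same sign counts as kept, even where its adjusted p crossed the threshold. With the GC content and length offsets SKP1 went from edgeR adjusted p = 0.722 to 0.000109, and CUL1 from 0.0198 to 0.214. A test against a 1.5-fold change called 3 members higher and 2 lower, where 6 and 7 were called as reported. It called 578 and 428 of all genes. With no fold change threshold these were 25 and 11 members and 4057 and 3904 genes. The GC content and length offsets left 4 members lower, FBXW7 at 0.50 and FBXO30 turned to -0.063. Library size alone turned SKP1 to 0.033, SKP2 to 0.011 and FBXO5 to 0.026. DESeq2 called 6 members higher and 7 lower. With 1 library left out, in fits where the lone sample is assumed to vary like the other group, FBXW7 ranged from 0.47 to 0.74, members higher from 5 to 7 and lower from 7 to 8, and all genes higher from 1158 to 1400 and lower from 995 to 1139. In the same fits SKP1 ranged from -0.059 to 0.0069, FBXO5 from -0.10 to 0.035 and FBXO31 from -0.0039 to 0.077. The causes were not tested.

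Same-numbered libraries shared little deviation across genes (correlation of same-numbered deviations 0.042). With 2 libraries per group this cannot show whether they were prepared together, and the labels do not say. With the replicate block 6 members were higher and 7 lower, FBXW7 was at 0.61, FBXO6 passed the adjusted p threshold at -0.48 (edgeR adjusted p = 0.0428), and 1341 and 1100 of all genes were called. With no fold change threshold, library size alone gave 26 members higher and 9 lower, and DESeq2 22 and 9. The shares of all tested genes were 31.1% higher and 22.0% lower with library size alone, and 21.0% and 19.9% with DESeq2. Members under about 100 counts, such as FBXO48, carry the largest error.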
